A study of Mus musculus with 27 samples.

Results

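Hox genes were followed across 27 RNA-seq libraries of immortalized mouse embryonic fibroblasts (iMEFs) that carry conditional Setdb1 alleles (cKO). The members were all genes whose symbol is Hox, a cluster letter from a to d and a number, which gave 39 of the 23009 genes named in the siRNA and inhibitor libraries: 11 in the Hoxa cluster on chromosome 6, 10 in the Hoxb cluster on chromosome 11, 9 in the Hoxc cluster on chromosome 15 and 9 in the Hoxd cluster on chromosome 2. The choice used names only and no measured value. In all 3 experiments the cells descended from 1 clone, isolated as a single cell, in which 4-hydroxytamoxifen (4OHT) deletes Setdb1, a histone methyltransferase of gene and retrovirus silencing, so that the untreated cells carry the same unrecombined alleles.

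The first experiment used rRNA-depleted total RNA and had 3 libraries each of untreated cells, of cells at day 5 that had received 4OHT for the first 4 days (4OHT day 5), and of KO cells kept in culture for more than 2 weeks after 4OHT (long-term KO). The siRNA experiment had 2 libraries in each group, all harvested at day 6: control siRNA (siCtrl), siRNA against the maintenance DNA methyltransferase Dnmt1 (siDnmt1), and both siRNAs in cells given 4OHT from day 0 (4OHT siCtrl and 4OHT siDnmt1). The inhibitor experiment also had 2 libraries in each group: untreated cells, cells given the histone deacetylase inhibitor TSA at 150 nM for 24 h, cells given the MEK inhibitor PD0325901 at 1 µM for 24 h, cells at day 6 after 4OHT (4OHT day 6), and 4OHT day 6 cells given PD0325901 for the last 24 h (4OHT PD). Nothing in the labels says that replicates came from separate cultures, so p-values measure the spread between these libraries, which may be technical.

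Hox genes encode homeodomain transcription factors that give cells their position along the body axis and along the limb. Genes with low numbers lie at the 3′ end of each cluster and are used early and towards the head, whereas genes with high numbers lie at the 5′ end and are used late, towards the tail and the tip of the limb. Fibroblasts in culture keep part of the Hox pattern of the place they came from, and Polycomb complexes hold the unused genes silent.

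Hoxa13 and Hoxc13, at the 5′ end of their clusters, were higher in long-term KO than in untreated cells. Hoxb13 was higher too, but was tested only because it reached 1 FPKM in the long-term KO libraries. The 250 bases before the annotated start of these genes and of Hoxd13 are shown here. They make the cytosine-guanine (CG) content of these promoters visible. The sequences are from the mm9 genome, written 5′ to 3′ in the direction of the gene, with each CG in capitals. They lie at chr6:52210875-52211124 on the minus strand for Hoxa13, and on the plus strand at chr11:96055425-96055674 for Hoxb13, chr15:102751312-102751561 for Hoxc13 and chr2:74506117-74506366 for Hoxd13.
Hoxa13: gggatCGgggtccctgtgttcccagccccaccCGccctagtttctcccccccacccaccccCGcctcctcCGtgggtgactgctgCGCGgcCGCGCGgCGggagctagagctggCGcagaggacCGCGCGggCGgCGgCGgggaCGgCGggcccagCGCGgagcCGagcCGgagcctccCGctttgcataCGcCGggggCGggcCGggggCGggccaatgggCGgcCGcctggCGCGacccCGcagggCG
Hoxb13: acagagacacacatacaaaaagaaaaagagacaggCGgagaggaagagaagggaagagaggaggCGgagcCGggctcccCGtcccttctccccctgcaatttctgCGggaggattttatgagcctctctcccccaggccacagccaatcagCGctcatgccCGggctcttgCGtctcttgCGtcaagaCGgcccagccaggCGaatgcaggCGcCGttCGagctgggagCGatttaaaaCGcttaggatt
Hoxc13: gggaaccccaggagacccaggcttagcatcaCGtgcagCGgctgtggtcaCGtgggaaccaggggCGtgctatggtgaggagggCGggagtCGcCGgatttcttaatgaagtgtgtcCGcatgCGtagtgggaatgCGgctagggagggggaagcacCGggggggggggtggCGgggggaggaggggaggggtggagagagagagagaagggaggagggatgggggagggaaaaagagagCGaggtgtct
Hoxd13: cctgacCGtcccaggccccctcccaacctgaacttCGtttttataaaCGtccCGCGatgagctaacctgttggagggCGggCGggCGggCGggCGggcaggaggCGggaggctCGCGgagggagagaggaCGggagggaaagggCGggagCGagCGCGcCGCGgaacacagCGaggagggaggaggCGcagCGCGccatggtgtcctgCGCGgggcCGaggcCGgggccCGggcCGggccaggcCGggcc
The windows held 35 CG in Hoxa13, 16 in Hoxb13, 13 in Hoxc13 and 31 in Hoxd13. Over all 39 Hox genes the median was 13 CG, and over the 19603 genes with such a window it was 11. All 4 group 13 windows were CpG-rich (at least 50% G and C, and at least 0.6 of the CG number that their base composition predicts), as were 22 of the 39 Hox windows (56.4%) and 43.5% of all windows. The letters TATAAA, searched on both strands, occurred in the Hoxd13 window, in 6 of 39 Hox windows (15.4%) and in 11.7% of all windows. Hoxa13 and Hoxd13 thus had many CG in their windows, yet Hoxa13 was transcribed in these cells and Hoxd13 was at or near 0.

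Values are deposited FPKM, a count of fragments scaled by transcript length and by library depth. The software that made them joined neighbouring Hox genes into a single locus in some libraries, and such a value belongs to no gene. In the total RNA, siRNA and inhibitor experiments, 19, 30 and 33 Hox genes had a value of their own in every library. Of these, 5, 10 and 19 reached 1 FPKM in enough libraries (3, 2 and 2) to be tested, beside 8647, 10693 and 11436 tested genes in all, while 14, 20 and 14 were too low. For the joined genes, the summed FPKM of the neighbours was tested instead, in 6, 4 and 3 joined units. The number of fragments behind a value was estimated from the deposited interval of each value, and its median over the tested Hox values was 212, 170 and 88.0 in the 3 experiments. Because the libraries were not strand-specific by their labels, Hoxa11 and its antisense RNA Hoxa11os could not be told apart where they overlap.

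Fibroblast markers were present in every group: 9 of 9 measured markers in the total RNA and 10 of 10 in the other experiments averaged at least 1 FPKM. Single markers varied widely between libraries. In the inhibitor experiment Pdgfra ranged from 0.871 to 31.8 FPKM and Col3a1 from 18.8 to 490 FPKM. Dnmt1 was at 80.5 and 73.4 FPKM in siCtrl cells and at 12.2 and 10.6 FPKM in siDnmt1 cells. The FPKM of the whole Setdb1 gene did not check its deletion, since it was 5.16 to 5.95 in untreated and 6.96 to 7.32 in long-term KO total RNA, and in the inhibitor experiment it was listed at 0 in 4OHT day 6 replicate 1 and both 4OHT PD libraries but at 5.30 in 4OHT day 6 replicate 2. The library labelled 4OHT siCtrl replicate 2 stood apart from replicate 1 (r = 0.918 between them, across genes). Its interferon-induced Oasl2 was 32.5 FPKM, against 306 in replicate 1 and 18.4 and 45.1 in the siCtrl libraries. Its Rsad2, also interferon-induced, was 8.87 FPKM, against 84.3 in replicate 1 and 1.55 and 1.88 in the siCtrl libraries. For PD0325901 replicate 2, the title line in the file names 4OHT PD and the description names PD0325901. The description was followed, and Oasl2 was 1.86 and 2.93 FPKM in the PD0325901 libraries against 270 and 324 in the 4OHT PD libraries.

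The iMEFs transcribed the 5′ genes of the Hoxa and Hoxc clusters and most genes of the Hoxb cluster. Over the 4 reference libraries without 4OHT or inhibitor (2 siCtrl and 2 untreated libraries of the inhibitor experiment), 16 of 39 Hox genes averaged at least 1 FPKM and 9 at least 5 FPKM. By cluster these 16 were 4 of 11 Hoxa, 7 of 10 Hoxb, 5 of 9 Hoxc and 0 of 9 Hoxd genes. Leaving out Hoxd, 10 of 11 genes at positions 9 to 13 passed 1 FPKM (median 5.60 FPKM), whereas 3 of 9 did at positions 1 to 4 (median 0.575 FPKM) and 3 of 10 at positions 5 to 8 (median 0.914 FPKM). The exception among the 5′ genes was Hoxb13, at 0.141 FPKM. The Hoxb cluster holds only Hoxb9 and Hoxb13 at positions 9 to 13. Its 3′ genes Hoxb2, Hoxb3 and Hoxb4 were also transcribed, at 7.24, 3.87 and 2.03 FPKM. So were Hoxb6, Hoxb7 and Hoxb8, at 3.01, 11.1 and 1.33 FPKM. No Hoxa or Hoxc gene at positions 1 to 8 averaged 1 FPKM.

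The highest levels were those of Hoxa10 and Hoxc11, both at 25.4 FPKM, and Hoxa11 at 21.9 FPKM, all genes of limb and trunk patterning. Their ranges overlapped, at 19.98 to 31.2 FPKM for Hoxa10, 18.4 to 33.3 for Hoxc11 and 20.3 to 23.3 for Hoxa11, so no order among them was shown. Hoxc10 (14.6 to 17.0 FPKM) and Hoxb9 (12.5 and 17.6 FPKM in the only 2 libraries that resolved it) followed, and then Hoxb7 (8.13 to 13.7 FPKM). Hoxc12, Hoxa9, Hoxc13 and Hoxa13 averaged 5.60, 5.44, 4.19 and 3.53 FPKM. In the Hoxd cluster 8 of 9 genes were listed at 0 in all 4 libraries. The remaining one, Hoxd8, was at 0.124 and 0.0997 FPKM in siCtrl cells and was listed at 0 in both untreated libraries of the inhibitor experiment.

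**Figure D1:**
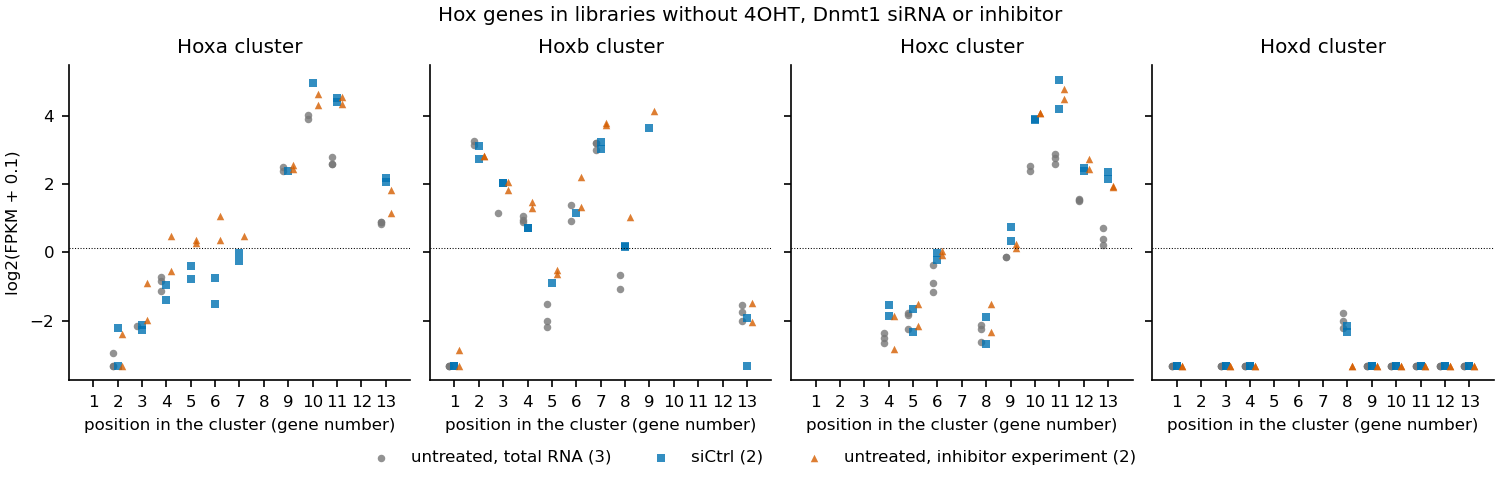
Level of the Hox genes as log2(FPKM + 0.1), by gene number from the 3′ to the 5′ end, in a panel for each cluster. Points are single libraries of the untreated total RNA (3), siCtrl (2) and untreated inhibitor (2) groups, and the dotted line is 1 FPKM. The points of Hoxa, Hoxb and Hoxc at numbers 9 to 13 lie mostly above the line, and those of Hoxd below it.

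Whether the Hox genes moved soon after Setdb1 deletion was asked with 4OHT day 5 against untreated cells. None of the 5 tested Hox genes was called (adjusted p under 0.05 and at least a 2-fold change, limma, Benjamini-Hochberg over all tested genes), where 3.46% of all tested genes were (2.08% higher and 1.38% lower), and 2 of the 5 had an unadjusted p under 0.05, as did 46.4% of all tested genes. Hoxa13 went from 1.68, 1.77 and 1.75 FPKM to 1.42, 1.41 and 1.47 FPKM, a log2 difference of -0.26 (SE 0.05, adjusted p = 0.0051, limma). Hoxc13 went from 1.21, 1.07 and 1.53 FPKM to 1.74, 1.74 and 1.98 FPKM, a log2 difference of 0.50 (SE 0.14, adjusted p = 0.027, limma). The groups were apart for both genes, though by less than 2-fold, and for 50.3% of all tested genes. The joined Hoxa9 to Hoxa11 unit stayed within its spread, with 28.0, 26.0 and 26.2 FPKM before and 24.2, 25.7 and 27.4 FPKM after (adjusted p = 0.50, limma), and none of the 6 joined units was called.

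In the long-term KO cells Hoxa13, Hoxc13 and the joined Hoxa9 to Hoxa11 unit rose against untreated cells, and Hoxb7 fell. Of the 5 tested Hox genes, 3 were called higher and 1 lower, where 7.74% of all tested genes were called higher and 6.48% lower. Hoxb13, a gene of the tail bud and hindgut, was one of those called higher. It passed the filter on low values through the long-term KO libraries alone and so had to differ. Its values are therefore given as a description. Without it, 2 of 4 tested Hox genes were called higher and 1 lower. No group of untreated cells was labelled as kept in culture as long. Time in culture and lasting loss of Setdb1 therefore cannot be told apart in the long-term KO results.

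Hoxa13, needed for the hand and foot, was at 1.68, 1.77 and 1.75 FPKM in untreated cells and at 7.48, 6.93 and 7.36 FPKM in long-term KO cells, a 4.18-fold rise (log2 difference 2.00, SE 0.05, adjusted p = 3.4e-08, limma). Hoxb13 was at 0.199, 0.245 and 0.149 FPKM and then at 3.26, 3.75 and 3.36 FPKM, a mean 17.5-fold higher (log2 difference 3.59, SE 0.17). Hoxc13, a gene of hair follicle and nail, was at 1.21, 1.07 and 1.53 FPKM and then at 4.96, 5.03 and 6.27 FPKM, 4.27-fold higher (log2 difference 2.02, SE 0.14, adjusted p = 7.1e-06, limma). All 3 long-term KO libraries lay above all 3 untreated ones for each gene, at Hoxb13 by way of the filter. The groups were apart, in either direction, for 73.3% of all tested genes. The remaining group 13 gene, Hoxd13, was listed at 0 in all of these 6 libraries. Against 4OHT day 5 cells, a comparison that shares the long-term KO libraries, 3 of 5 were called higher, again with Hoxb13 tested through the long-term KO libraries alone, where 6.71% of all tested genes were called higher and 6.18% lower. Without Hoxb13, 2 of 4 were called higher, Hoxa13 and Hoxc13.

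The genes next to Hoxa13 moved with it. The joined unit of Hoxa9, Hoxa10 and Hoxa11 held 28.0, 26.0 and 26.2 FPKM in untreated cells and 84.6, 86.9 and 93.1 FPKM in long-term KO cells, 3.30-fold higher (log2 difference 1.72, SE 0.06, adjusted p = 1.6e-07, limma). Hoxa11 had its own value in 2 of the 3 long-term KO libraries, 19.2 and 28.6 FPKM, against 6.78, 5.95 and 5.92 FPKM in untreated cells, and the overlapping locus of the noncoding Hoxa11os, whose reads could not be told apart from those of Hoxa11, was at 6.98 ± 0.982 and then 22.5 ± 2.62 FPKM (SD, n = 3). Further 3′ in the same cluster, the unit of Hoxa3 to Hoxa6 held 1.23, 1.37 and 1.17 FPKM and then 1.16, 1.17 and 1.16 FPKM. Hoxa7 with its neighbour Mira went from 2.63, 2.88 and 2.40 FPKM to 1.64, 1.86 and 1.45 FPKM, below the 2-fold limit (log2 difference -0.65, adjusted p = 0.00095, limma).

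In the Hoxb cluster, Hoxb7 and the joined unit of Hoxb8 and Hoxb9 were lower, and the unit of Hoxb2 to Hoxb6 did not pass the test. Hoxb7, a trunk gene, fell from 9.17, 9.13 and 7.95 FPKM to 4.27, 4.73 and 3.94 FPKM, close to the limit of the fold (log2 difference -1.004, SE 0.10, adjusted p = 5.0e-05, limma). Leaving out untreated replicate 1 or 2, or long-term KO replicate 1 or 3, brought the log2 difference to between -0.999 and -0.94 and ended the call on the fold limit, with the largest adjusted p at 0.00037 (limma). Hoxb8 and Hoxb9, joined with Gm53, went from 17.8, 18.2 and 18.9 FPKM to 11.9, 10.0 and 11.2 FPKM, below the 2-fold limit (log2 difference -0.73, adjusted p = 3.7e-05, limma). Resolved values of Hoxb8 were 0.377 and 0.529 FPKM in untreated cells and 0.630 FPKM in long-term KO replicate 2. Hoxb2 had 9.41 and 8.71 FPKM in the 2 untreated libraries that resolved it and 10.3, 9.45 and 9.52 FPKM in long-term KO cells, and was not tested by itself. The unit of Hoxb2 to Hoxb6 held 14.5, 16.2 and 15.5 FPKM in untreated and 12.8, 12.6 and 18.8 FPKM in long-term KO cells (log2 difference -0.09, adjusted p = 0.60, limma).

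In the Hoxc cluster the difference was found at Hoxc13 and was not shown further 3′. Hoxc12 went from 2.75, 2.85 and 2.78 FPKM to 4.44, 4.79 and 4.33 FPKM, without passing the test (log2 difference 0.67, SE 0.41, adjusted p = 0.18, limma), and its 4OHT day 5 libraries spread from 1.16 to 4.17 FPKM. The unit of Hoxc5, Hoxc9, Hoxc10 and Hoxc11 held 12.01, 14.4 and 13.4 FPKM in untreated and 15.9, 12.2 and 14.5 FPKM in long-term KO cells (adjusted p = 0.49, limma). Resolved values of Hoxc10 were 5.12 and 5.70 FPKM in untreated cells, 4.58 and 4.59 FPKM after 5 days, 6.62 FPKM in long-term KO cells, and those of Hoxc11 were 5.89 to 7.28, 6.56 to 7.78, and 6.65 and 9.44 FPKM in the same order. Hoxd8 stayed between 0.0605 and 0.193 FPKM in all 9 libraries.

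**Figure D2:**
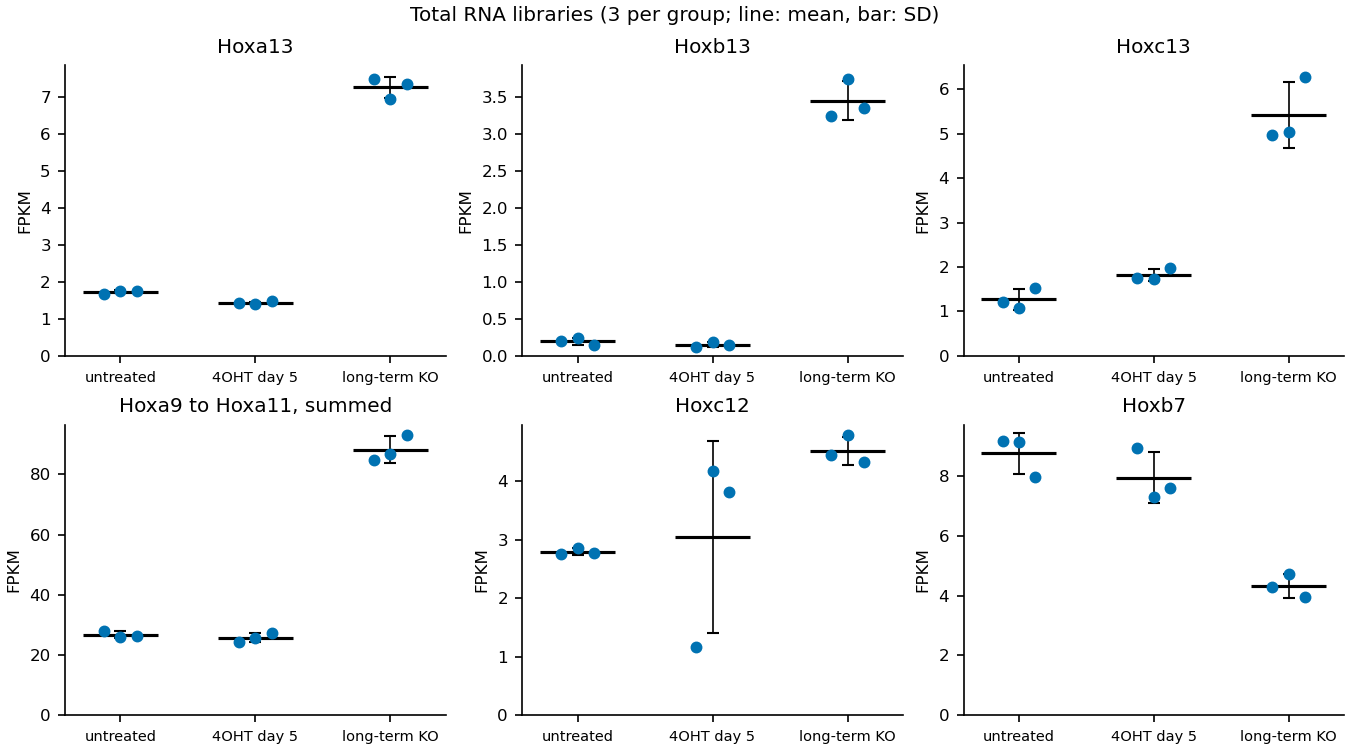
FPKM in each library of untreated, 4OHT day 5 and long-term KO total RNA for Hoxa13, Hoxb13, Hoxc13, the sum of Hoxa9 to Hoxa11, Hoxc12 and Hoxb7, on linear axes. Points are libraries, lines are means and bars are SD (n = 3). Hoxa13 lies at 6.93 to 7.48 FPKM in long-term KO cells and at 1.41 to 1.77 FPKM in the other groups, and Hoxb7 is lowest in long-term KO cells.

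Genes that share the regional programme with the Hox genes moved in the same cells. Of 20 tested regional and limb identity factors, 6 were called higher (30.0%) and 2 lower (10.0%) in long-term KO against untreated cells, where 7.74% and 6.48% of all tested genes were. Their median log2 difference was 0.65 (all tested genes 0.06). Alx4, a factor of limb and skull mesenchyme, rose from 2.27 ± 0.0471 to 12.9 ± 0.383 FPKM, and Shox2, of the proximal limb, from 12.1 ± 4.01 to 50.8 ± 0.688 FPKM (SD, n = 3). Lmx1b, which sets the dorsal side of the limb, fell from 2.99 ± 0.358 to 0.545 ± 0.0400 FPKM (SD, n = 3). Among 8 tested TALE homeodomain cofactors, which bind DNA with Hox proteins, Meis3 alone was called (log2 difference 1.20). None of 10 PRC2 genes, 15 PRC1 genes, 13 MLL and Hox activator genes or 12 genes flanking the clusters was called, and of 10 upstream regulators only Smad3 was (log2 difference 1.19). At 4OHT day 5 no gene of these lists was called. In these bulk libraries fewer cells that transcribe a gene and less RNA per cell cannot be told apart. The neural markers, led by Nes, summed to 35.3 to 37.0 FPKM in untreated and 23.5 to 25.2 FPKM in long-term KO cells, the epithelial markers to 1.24 to 1.57 and 0.390 to 0.590 FPKM, and their part in the result was not tested.

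With Dnmt1 knocked down, the 5′ Hoxa genes fell. In siDnmt1 against siCtrl cells, 2 of 10 tested Hox genes were called lower and none higher, where 2.44% of all tested genes were called lower and 2.35% higher. Hoxa13 fell from 4.09 and 4.46 FPKM to 0.538 and 0.924 FPKM (log2 difference -2.43, SE 0.33, adjusted p = 0.012, limma). Hoxa11 fell from 21.1 and 22.9 FPKM to 10.4 and 9.72 FPKM (log2 difference -1.12, SE 0.22, adjusted p = 0.036, limma). The sum of Hoxa9 and Hoxa10 fell from 36.3 and 42.0 FPKM to 11.7 and 12.8 FPKM (log2 difference -1.67, SE 0.30, adjusted p = 0.027, limma). Hoxa10 alone was at 31.2 FPKM in siCtrl replicate 1 and at 9.17 and 10.7 FPKM in the siDnmt1 libraries. Without any 1 of the 4 siCtrl and siDnmt1 libraries, Hoxa11 had an adjusted p of 0.17 to 0.22 and Hoxa13 of 0.0501 to 0.11 (limma), so that both calls were lost while the log2 differences stayed between -1.18 and -1.06 and between -2.78 and -2.09. The sum of Hoxa9 and Hoxa10 lost its call without any 1 of those 4 libraries or either 4OHT siDnmt1 library (adjusted p 0.054 to 0.18, limma; log2 difference -1.77 to -1.57).

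Outside the 5′ end of the Hoxa cluster no Hox gene was called. Hoxb7 was at 9.36 and 8.13 FPKM in siCtrl and at 13.8 and 14.6 FPKM in siDnmt1 cells, below the fold limit (log2 difference 0.70, SE 0.11, adjusted p = 0.021, limma). Hoxb8 and Hoxb9 with Gm53 were at 17.8 and 19.9 FPKM and then at 29.3 and 26.0 FPKM (log2 difference 0.55, adjusted p = 0.043, limma), and Hoxb9 by itself was at 12.5 FPKM in siCtrl replicate 2 and 22.7 FPKM in siDnmt1 replicate 1. For Hoxb7 and for this unit the adjusted p did not stay under 0.05 in every alternative fit. Without 1 library the log2 difference was 0.60 to 0.80 for Hoxb7 and 0.46 to 0.64 for the unit. Hoxc6 was at 0.748 and 0.884 FPKM in siCtrl and 2.18 and 2.13 FPKM in siDnmt1 cells (log2 difference 1.30, adjusted p = 0.11, limma). It passed the test without either 4OHT siCtrl library (adjusted p = 0.014 and 0.015, limma), which enter this fit through the shared spread. Hoxc10 was at 14.6 and 15.0 and then 18.1 and 17.7 FPKM, Hoxc11 at 33.3 and 18.4 and then 13.2 and 9.20 FPKM, and Hoxb2 at 8.502 and 6.50 and then 8.20 and 7.55 FPKM, none of which passed the test. The units of Hoxa7 with Mira (2.49 and 2.74, then 3.67 and 6.23 FPKM) and of Hoxb3 to Hoxb6 (10.4 and 8.07, then 9.31 and 8.08 FPKM) did not pass either. Hoxa4 (0.277 and 0.417, then 0.986 and 0.912 FPKM), Hoxa6 (0.249 and 0.499, then 0.121 and 0 FPKM), Hoxb13 (0 and 0.166, then 0.268 and 0.436 FPKM) and Hoxd8 (0.124 and 0.0997, then 0.515 and 1.11 FPKM) were too low to be tested.

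Setdb1 deletion under control siRNA gave no Hox call in a comparison that shares the siCtrl libraries with the one before. In 4OHT siCtrl against siCtrl cells 0 of 10 tested Hox genes were called by limma, where 6.08% of all tested genes were (2.6% higher and 3.48% lower), and 4 of the 10 had an unadjusted p under 0.05, as did 32.6% of all tested genes. The replicates differed: the sum of Hoxa9 and Hoxa10 was 18.0 and 35.5 FPKM, Hoxc12 was 10.8 and 4.89 FPKM and Hoxc13 was 7.42 and 3.14 FPKM, the second value in each case being that of the library that stood apart. Without that library, Hoxa11 (10.0 FPKM in replicate 1 against 21.1 and 22.9 FPKM; log2 difference -1.12, adjusted p = 0.017, limma) and Hoxc12 (log2 difference 1.01, adjusted p = 0.015, limma) were called, and without replicate 1 Hoxc6 was (log2 difference 1.16, adjusted p = 0.030, limma). In such a comparison the lone library is assumed to vary as the other groups do. Hoxb7, at 13.6 and 12.9 FPKM, had an adjusted p under 0.05 below the fold limit (log2 difference 0.60, adjusted p = 0.025, limma), whereas Hoxa13, at 2.18 and 2.44 FPKM, did not pass (log2 difference -0.86, adjusted p = 0.13, limma).

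Cells given both 4OHT and siDnmt1 had no called Hox gene against cells given siDnmt1, or 4OHT with siCtrl. In 4OHT siDnmt1 against siDnmt1 cells, 0 of 10 tested Hox genes were called, with 5.64% of all tested genes called (3.36% higher and 2.28% lower) and 3 of the 10 at an unadjusted p under 0.05, as 34.2% of all tested genes were. Against 4OHT siCtrl cells 0 of 10 were called as well, with 1.43% of all tested genes called (1.02% higher and 0.411% lower) and 7 of the 10 at an unadjusted p under 0.05, as 19.6% of all tested genes were. Hoxa13 was at 0.945 and 0.589 FPKM and Hoxa11 at 6.30 and 8.69 FPKM. Hoxa10 was at 9.80 and 9.17, Hoxb7 at 17.2 and 17.4, Hoxb2 at 18.4 and 8.01, Hoxc10 at 14.5 and 16.1, Hoxc11 at 11.6 and 25.9 and Hoxd8 at 0.518 and 0.740 FPKM. The test of whether the 4OHT effect differed with siDnmt1 (the interaction, called by adjusted p alone) called 0 of 10 Hox genes, where 0.196% of all tested genes were called, and its smallest unadjusted p was 0.090, at Hoxa13. These calls depended on single libraries. Without either 4OHT siCtrl library, Hoxc12 (log2 difference 1.27) and Hoxc13 (1.04) were called higher in 4OHT siDnmt1 than in siDnmt1 cells, and without 4OHT siDnmt1 replicate 2, Hoxb2 was (1.21). Against 4OHT siCtrl cells, Hoxa13, Hoxc9 and Hoxc12 were called without 4OHT siCtrl replicate 1 (log2 differences -1.58, 1.11 and 1.26), Hoxc6 without replicate 2 (1.95) and Hoxb2 without 4OHT siDnmt1 replicate 2 (1.69). The interaction was called for Hoxc12 without 4OHT siCtrl replicate 1 (1.38, adjusted p = 0.035, limma).

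**Figure D3:**
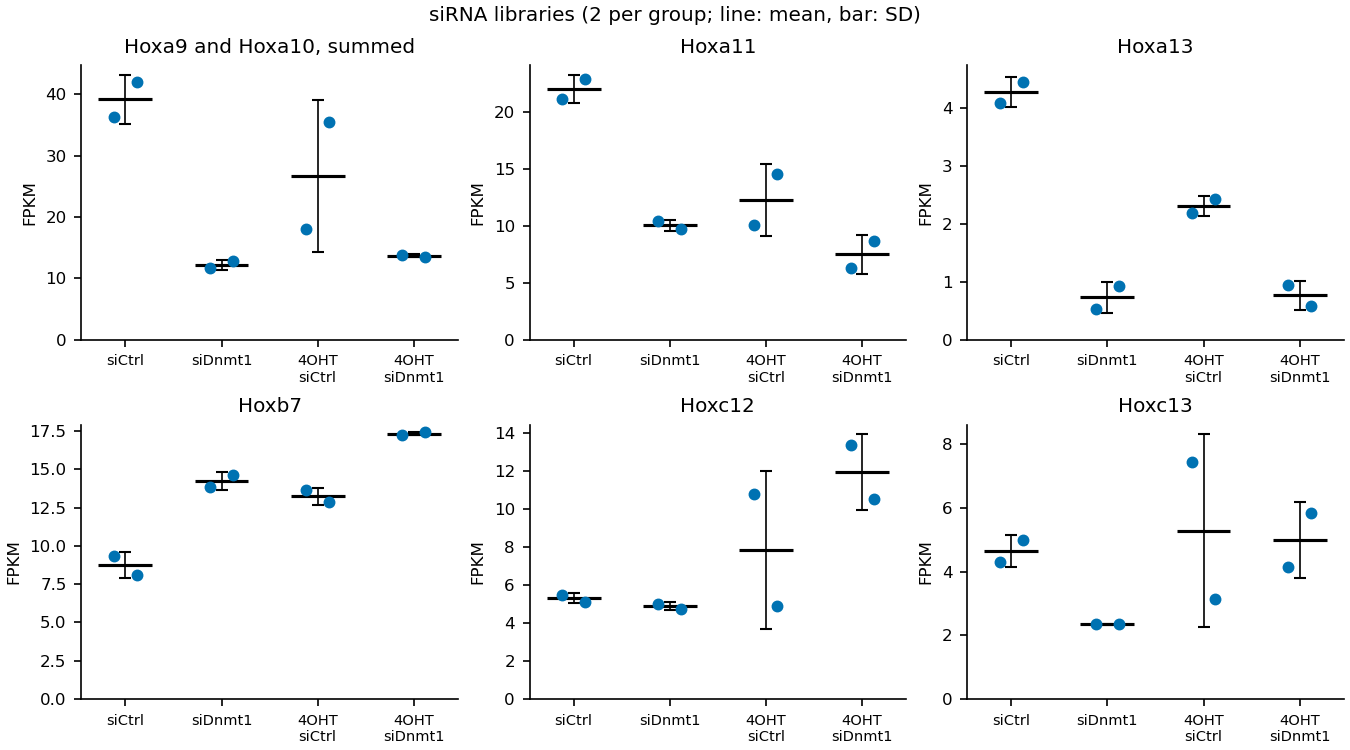
FPKM in each library of siCtrl, siDnmt1, 4OHT siCtrl and 4OHT siDnmt1 cells for the sum of Hoxa9 and Hoxa10, Hoxa11, Hoxa13, Hoxb7, Hoxc12 and Hoxc13, on linear axes. Points are libraries, lines are means and bars are SD (n = 2). Hoxa13 lies at 4.09 and 4.46 FPKM in siCtrl and below 1 FPKM in both siDnmt1 groups, and the 4OHT siCtrl replicates lie apart for Hoxa9 and Hoxa10, Hoxc12 and Hoxc13.

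Of 27 tested regional and limb identity factors, 6 were called lower (22.2%) and none higher in siDnmt1 cells, where 2.44% and 2.35% of all tested genes were. Their median log2 difference was -0.57 (all tested genes -0.09). Shox2 fell from 43.1 ± 3.55 to 4.17 ± 0.153 FPKM and Msx1, of the growing limb edge, from 35.0 ± 1.04 to 8.48 ± 0.446 FPKM (SD, n = 2). In 4OHT siCtrl against siCtrl cells 5 of the 27 were called lower (18.5%) and 1 higher (3.70%), where 3.48% and 2.6% of all tested genes were, with Msx1 at 6.83 ± 3.72 and Shox2 at 14.1 ± 3.75 FPKM (SD, n = 2). None of 8 TALE cofactors, 10 PRC2, 16 PRC1 or 16 MLL and Hox activator genes was called in siDnmt1 cells, whereas in 4OHT siCtrl cells the TALE cofactor Meis2 fell from 16.9 ± 0.897 to 4.05 ± 0.0185 FPKM (SD, n = 2; adjusted p = 0.0036, limma). Of 16 PRC1 genes in those cells Cbx7 was called higher, at 0.818 ± 0.0622 and then 3.09 ± 1.57 FPKM (SD, n = 2). Of 4 noncoding cluster genes Hoxb5os was, at 0.0817 ± 0.116 and then 1.16 ± 0.0937 FPKM (SD, n = 2). Both passed the filter on low values only with the 4OHT siCtrl libraries. Gli1, among the 5 lower factors, passed it only with the siCtrl libraries. The upstream regulator Hmga2 was called higher in both (log2 differences 1.26 and 1.58), and the flanking gene Calcoco1 lower in siDnmt1 cells (-1.06). Epithelial markers summed to 0.677 and 0.910 FPKM in siCtrl and to 21.1 and 21.4 FPKM in siDnmt1 cells. Over the experiment Krt18 reached 40.7 FPKM. Epcam, Cdh1, Cldn4 and Esrp1 reached no more than 1.69, 0.937, 4.24 and 0.0172 FPKM. Neural markers summed to 54.7 and 56.5 FPKM in siCtrl and to 111 and 118 FPKM in siDnmt1 cells. The fibroblast markers summed to 4112 to 4192 FPKM in siCtrl, 3245 to 3364 FPKM in siDnmt1, 2119 to 2604 FPKM in 4OHT siCtrl and 1917 to 2167 FPKM in 4OHT siDnmt1 cells. In 4OHT siCtrl and 4OHT siDnmt1 cells the neural markers summed to 96.4 to 115 and 90.0 to 106 FPKM. The epithelial markers summed to 1.05 to 6.65 and 30.7 to 46.5 FPKM in the same order. The part of these marker sums in the Hox results was not tested.

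The 4OHT, TSA and PD0325901 groups of the inhibitor experiment were each set against the same 2 untreated libraries. At day 6 after 4OHT, 1 Hox gene was called higher and 1 lower of 19 tested, where 4.88% of all tested genes were called higher and 6.2% lower. Hoxc13 rose from 3.78 and 3.67 FPKM to 7.93 and 8.45 FPKM, 2.20-fold (log2 difference 1.12, SE 0.33, adjusted p = 0.046, limma). Hoxa11 fell from 23.3 and 20.3 FPKM to 12.8 and 6.42 FPKM (log2 difference -1.25, SE 0.37, adjusted p = 0.044, limma). Hoxa10 went the same way without passing the test, from 19.98 and 25.0 FPKM to 17.4 and 8.47 FPKM, and was called without 4OHT day 6 replicate 1 (log2 difference -1.39, adjusted p = 0.042, limma). Hoxa6, which reached 1 FPKM in the untreated libraries alone and was tested through them, was at 1.18 and 1.98 and then 0.434 and 0.332 FPKM. The call of Hoxa11 was lost on leaving out any 1 library of the untreated, TSA or PD0325901 groups or 4OHT day 6 replicate 2 (adjusted p up to 0.19, limma), and that of Hoxc13 on leaving out any 1 library of the untreated, TSA, 4OHT day 6 or 4OHT PD groups (adjusted p up to 0.17, limma). Hoxc10 was lower by less than 2-fold, at 16.8 and 17.0 and then 12.3 and 11.4 FPKM (log2 difference -0.51, adjusted p = 0.033, limma).

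No Hox gene had an adjusted p under 0.05 both in 4OHT siCtrl against siCtrl cells and in 4OHT day 6 against untreated cells, the separate day 6 tests of Setdb1 deletion. Hoxa11 came nearest. It was at 21.1 and 22.9 FPKM in siCtrl and 10.0 and 14.5 FPKM in 4OHT siCtrl cells (log2 difference -0.86, adjusted p = 0.053, limma). These groups were apart, as they were for 58.8% of all tested genes. Its log2 difference between untreated and 4OHT day 6 cells was -1.25 (adjusted p = 0.044, limma). Hoxb7 was at 13.7 and 13.1 and then 14.9 and 15.9 FPKM, Hoxb2 at 6.92 and 7.03 and then 8.20 and 8.54 FPKM, Hoxc11 at 22.3 and 27.5 and then 34.1 and 17.1 FPKM, and Hoxa4 at 1.29 and 0.590 and then 0.645 and 0.617 FPKM. Hoxb13 stayed low, at 0.256 and 0.141 and then 0.193 and 0.147 FPKM, and Hoxd8 was listed at 0 in untreated cells and was at 0.0385 and 0.166 FPKM after 4OHT. Hoxc13 was higher at 4OHT day 5 (log2 difference 0.50, adjusted p = 0.027, limma) and at 4OHT day 6 (1.12, adjusted p = 0.046, limma). It did not pass in 4OHT siCtrl cells (0.06, adjusted p = 0.94, limma). Hoxa13 was lower at 4OHT day 5, in 4OHT siCtrl cells and at 4OHT day 6 (log2 differences -0.26, -0.86 and -0.70). Its adjusted p was under 0.05 at 4OHT day 5 alone (0.0051, 0.13 and 0.11, limma). Of 29 tested regional and limb identity factors, 2 were called higher (6.90%) and 5 lower (17.2%) at 4OHT day 6, where 4.88% and 6.2% of all tested genes were. Foxc2, of bone and vessel mesenchyme, which reached 1 FPKM in the 4OHT day 6 and TSA libraries alone, was at 0.237 ± 0.0578 and then 5.29 ± 0.931 FPKM, and Shox2 fell from 27.6 ± 1.17 to 12.8 ± 0.0779 FPKM (SD, n = 2). Of 9 TALE cofactors Meis3 was called higher and Meis2 and Pknox2 lower, of 18 PRC1 genes Phc2 higher, of 18 MLL and Hox activators Mllt3 lower and of 14 flanking genes Snx11 higher, while none of 11 PRC2 genes, 13 upstream regulators or 3 noncoding genes of the clusters was called.

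With TSA, 3 of 19 tested Hox genes were called higher and 6 lower, where 19.3% of all tested genes were called higher and 12.8% lower. The 3 higher genes, Hoxb13, Hoxd8 and Hoxa4, would not have passed the filter on low values without the TSA libraries. Hoxa6, one of the lower genes, would not have passed without the untreated ones. These 4 are given as a description. Of the 14 tested Hox genes that passed without either group, none was called higher and 5 were called lower.

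Hoxb13 was at 0.256 and 0.141 FPKM in untreated and at 10.2 and 10.95 FPKM in TSA cells (log2 difference 5.18, SE 0.29). Hoxd8, listed at 0 in both untreated libraries, was at 1.38 and 1.22 FPKM. Other Hoxd genes, all listed at 0 in untreated cells, had low values in both TSA libraries: Hoxd13 0.445 and 0.605 FPKM, Hoxd10 0.220 and 0.176 FPKM and Hoxd11 0.115 and 0.160 FPKM. Hoxa4, a 3′ gene, was at 1.29 and 0.590 FPKM in untreated and 1.92 and 2.56 FPKM in TSA cells (log2 difference 1.25, SE 0.40), and outside these groups it stayed under 1 FPKM.

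Among the lower genes were the abundant Hoxc11, Hoxa10, Hoxa11 and Hoxb7. Hoxc11 fell from 22.3 and 27.5 FPKM to 3.18 and 1.74 FPKM, 10.1-fold (log2 difference -3.34, SE 0.35, adjusted p = 0.00018, limma). Its neighbour Hoxc10 went from 16.8 and 17.0 to 23.1 and 22.6 FPKM (log2 difference 0.44, adjusted p = 0.027, limma), and Hotair, a noncoding RNA transcribed between Hoxc11 and Hoxc12, fell from 1.63 ± 0.319 to 0.359 ± 0.101 FPKM (SD, n = 2; adjusted p = 0.0027, limma). Hoxa10 fell from 19.98 and 25.0 FPKM to 9.08 and 7.45 FPKM and Hoxa11 from 23.3 and 20.3 FPKM to 9.82 and 6.70 FPKM (log2 differences -1.43 and -1.41, adjusted p = 0.013 for both, limma). Hoxa10 lost its call without untreated or TSA replicate 2 and Hoxa11 without untreated replicate 1 or TSA replicate 2 (adjusted p 0.066 to 0.099, limma). Hoxa13, next to them, was at 3.47 and 2.12 and then 3.44 and 3.61 FPKM (adjusted p = 0.30, limma).

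In the Hoxb cluster, Hoxb2, a hindbrain gene, fell from 6.92 and 7.03 FPKM to 1.73 and 2.78 FPKM (log2 difference -1.62, adjusted p = 0.00072, limma), and Hoxb7 fell from 13.7 and 13.1 FPKM to 6.48 and 5.12 FPKM (log2 difference -1.20, adjusted p = 0.00034, limma). The unit of Hoxb3, Hoxb5 and Hoxb6 fell from 7.07 and 8.53 FPKM to 2.99 and 3.46 FPKM (log2 difference -1.25, adjusted p = 0.0010, limma). Hoxb4, which lies between them, was at 2.70 and 2.38 and then 3.22 and 3.59 FPKM (adjusted p = 0.14, limma), and Hoxb9 was at 17.6 FPKM in the untreated library that resolved it and at 18.4 and 15.8 FPKM in TSA cells. Hoxa6, in the Hoxa cluster, was at 1.18 and 1.98 FPKM in untreated cells and was listed at 0 and at 0.443 FPKM in TSA cells. Within each of the Hoxa, Hoxb and Hoxc clusters, genes that fell thus stood beside genes that did not pass the test or, at Hoxc10, were higher by less than 2-fold.

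Other genes of the same pathways also moved with TSA, as 32.1% of all tested genes did. Of 29 tested regional and limb identity factors, 6 were called higher (20.7%) and 11 lower (37.9%), with a median log2 difference of -0.49, among them Prrx1, a mesenchyme factor, which fell from 70.8 ± 6.66 to 8.40 ± 2.91 FPKM (SD, n = 2). The 6 higher ones included Barx1, Lhx2 and Six2, which passed the filter on low values only through the TSA libraries, with Barx1 listed at 0 before and at 2.45 ± 0.180 FPKM after (SD, n = 2). Of 9 TALE cofactors 2 were called higher (Pbx4, Meis1) and 2 lower (Meis2, Pknox2), of 11 PRC2 genes 1 higher (Jarid2) and 1 lower (Phf19), of 18 PRC1 genes 3 higher and 2 lower, of 18 MLL and Hox activators 3 lower, of 13 upstream regulators 1 higher and 3 lower, of 3 noncoding genes of the clusters 2 lower (Hotair and the locus of Hoxa11os, which overlaps Hoxa11) and of 14 flanking genes 3 higher (1 of them, Calcoco2, tested through the TSA libraries alone) and 1 lower. Of 13 other homeobox genes near Hox in kind, only Gbx2 was tested, through the TSA libraries alone, at 0.0203 ± 0.0287 FPKM before and 1.96 ± 0.749 FPKM after (SD, n = 2). Epithelial markers summed to 1.15 and 1.44 FPKM in untreated and 32.2 and 33.5 FPKM in TSA cells, up to 29.2 FPKM of it Epcam, and haematopoietic markers to 4.27 and 4.90 and then 60.8 and 67.3 FPKM, up to 66.9 FPKM of it Cd68, with Ptprc, Spi1, Lyz2 and Itgam no higher than 0.171 FPKM. Neural markers summed to 33.3 and 33.9 FPKM in untreated and 91.5 and 102 FPKM in TSA cells. Over the experiment Map2 reached 53.0 FPKM and Nes 52.2 FPKM. The part of these markers in the result was not tested.

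MEK inhibition gave no Hox call on its own. In PD0325901 against untreated cells, 0 of 19 tested Hox genes were called by limma, with 7.22% of all tested genes called (3.07% higher and 4.15% lower) and 2 of the 19 at an unadjusted p under 0.05, as 29.1% of all tested genes were. Hoxc10 was lower by less than 2-fold, at 16.8 and 17.0 and then 10.4 and 13.2 FPKM (log2 difference -0.52, adjusted p = 0.043, limma), and Hoxb8 and Hoxb9 with Gm53 were higher by less than 2-fold, at 22.9 and 25.8 and then 45.4 and 34.9 FPKM (log2 difference 0.71, adjusted p = 0.024, limma). Hoxc13 was at 9.54 and 4.25 FPKM in the PD0325901 libraries, and was called without replicate 2, the library with the conflicting title line (log2 difference 1.33, adjusted p = 0.012, limma). Hoxa10 was at 22.5 and 19.5, Hoxa11 at 17.5 and 12.4, Hoxa13 at 3.04 and 3.70, Hoxb7 at 10.1 and 8.99, Hoxb2 at 8.80 and 7.12, Hoxc11 at 13.9 and 14.2 and Hoxb13 at 0.131 and 0.0669 FPKM.

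In Setdb1-deleted cells PD0325901 gave no Hox call either: in 4OHT PD against 4OHT day 6 cells 0 of 19 were called by limma, with 3.76% of all tested genes called (2.38% higher and 1.38% lower) and 1 of the 19 at an unadjusted p under 0.05, as 22.6% of all tested genes were. In 4OHT PD against PD0325901 cells 1 of 19 was called higher, with 4.43% of all tested genes called, 3.11% higher and 1.32% lower. This was Hoxb13, at 0.385 and 0.355 FPKM against 0.131 and 0.0669 FPKM (log2 difference 1.26, adjusted p = 0.042, limma), all 4 values being under 1 FPKM. Without PD0325901 replicate 1, Hoxc12 and Hoxc13 were called as well (log2 differences 1.13 and 1.09), and the call of Hoxb13 was lost on leaving out any 1 other library of the experiment (adjusted p up to 0.17, limma). The interaction of 4OHT and PD0325901 called 0 of 19 Hox genes and 0.726% of all tested genes, with Hoxb13 (log2 1.38, adjusted p = 0.18, limma) and Hoxc10 (log2 0.61, adjusted p = 0.20, limma) at the smallest p. In 4OHT PD cells Hoxa10 was at 20.8 and 11.5, Hoxa11 at 13.6 and 8.91, Hoxb7 at 13.1 and 13.7, Hoxb2 at 12.5 and 10.9, Hoxc10 at 12.01 and 13.2, Hoxc11 at 15.7 and 14.8, Hoxc13 at 10.1 and 8.28 and Hoxd8 at 0.289 and 0.107 FPKM.

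**Figure D4:**
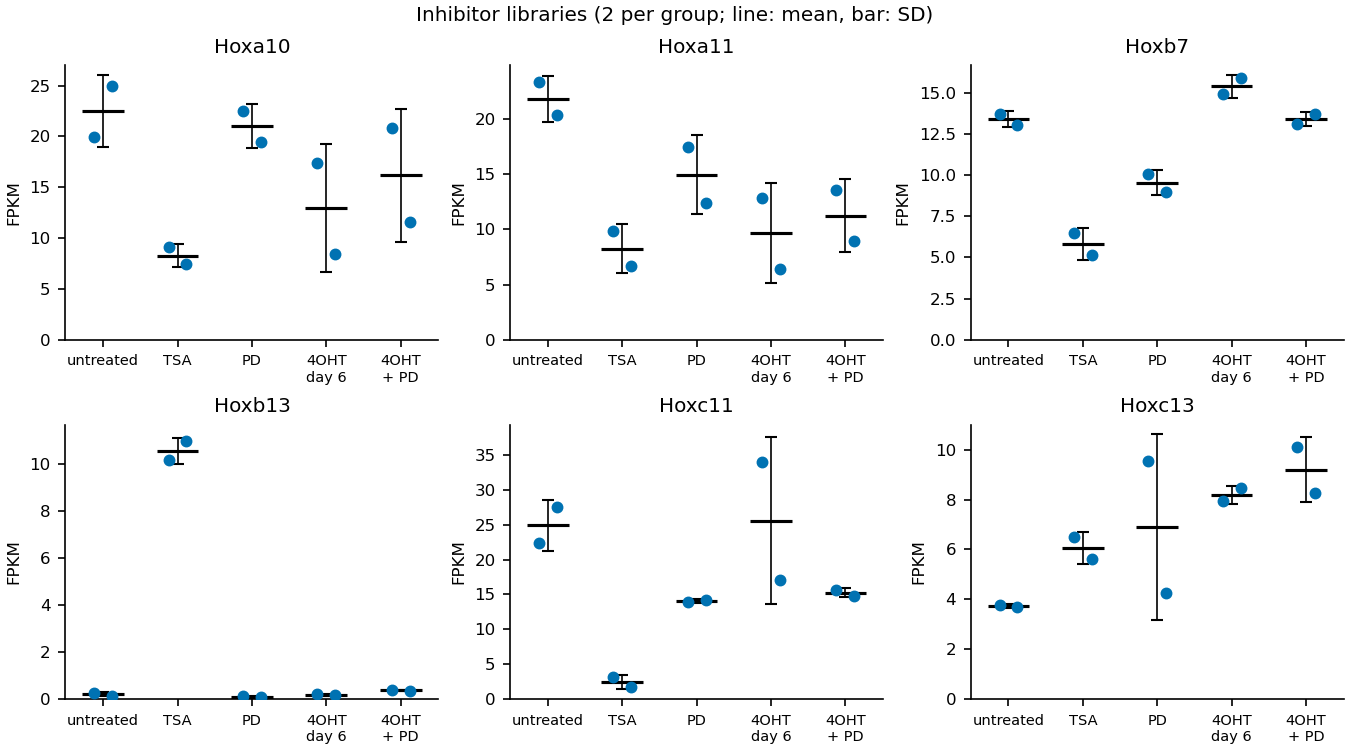
FPKM in each library of the untreated, TSA, PD0325901, 4OHT day 6 and 4OHT PD groups of the inhibitor experiment for Hoxa10, Hoxa11, Hoxb7, Hoxb13, Hoxc11 and Hoxc13, on linear axes. Points are libraries, lines are means and bars are SD (n = 2). Hoxb13 lies at 10.2 and 10.95 FPKM with TSA and below 0.4 FPKM in the other groups, and Hoxc11 lies lowest with TSA.

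The summed FPKM of each cluster, given as a description with no test, showed where the balance between clusters shifted. In total RNA the Hoxa cluster held 34.2 ± 1.03 FPKM in untreated, 31.6 ± 1.47 in 4OHT day 5 and 100.4 ± 6.18 in long-term KO cells (SD, n = 3), which took its share of all Hox FPKM from 36.0% to 63.1%. The Hoxb cluster held 42.7 ± 1.05, 37.0 ± 1.32 and 33.5 ± 3.30 FPKM and the Hoxc cluster 18.0 ± 1.25, 18.5 ± 2.63 and 25.2 ± 1.76 FPKM. In the siRNA experiment the Hoxa cluster went from 68.1 ± 5.81 FPKM with siCtrl to 30.9 ± 2.24 with siDnmt1, 46.3 ± 17.2 with 4OHT siCtrl and 29.7 FPKM with 4OHT siDnmt1, whereas Hoxb went from 41.3 ± 6.87 to 56.7 ± 0.0776, 55.5 ± 1.71 and 68.3 FPKM (SD, n = 2). In the inhibitor experiment Hoxa was highest in untreated cells (59.8 FPKM) and lower with TSA (33.4 ± 2.24 FPKM), PD0325901 (50.7 ± 3.23 FPKM), 4OHT (35.2 ± 6.71 FPKM) and both 4OHT and PD0325901 (39.9 ± 11.97 FPKM). The Hoxd cluster summed to 2.35 ± 0.0389 FPKM with TSA and to no more than 1.21 FPKM in any library of the siRNA experiment.

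**Figure D5:**
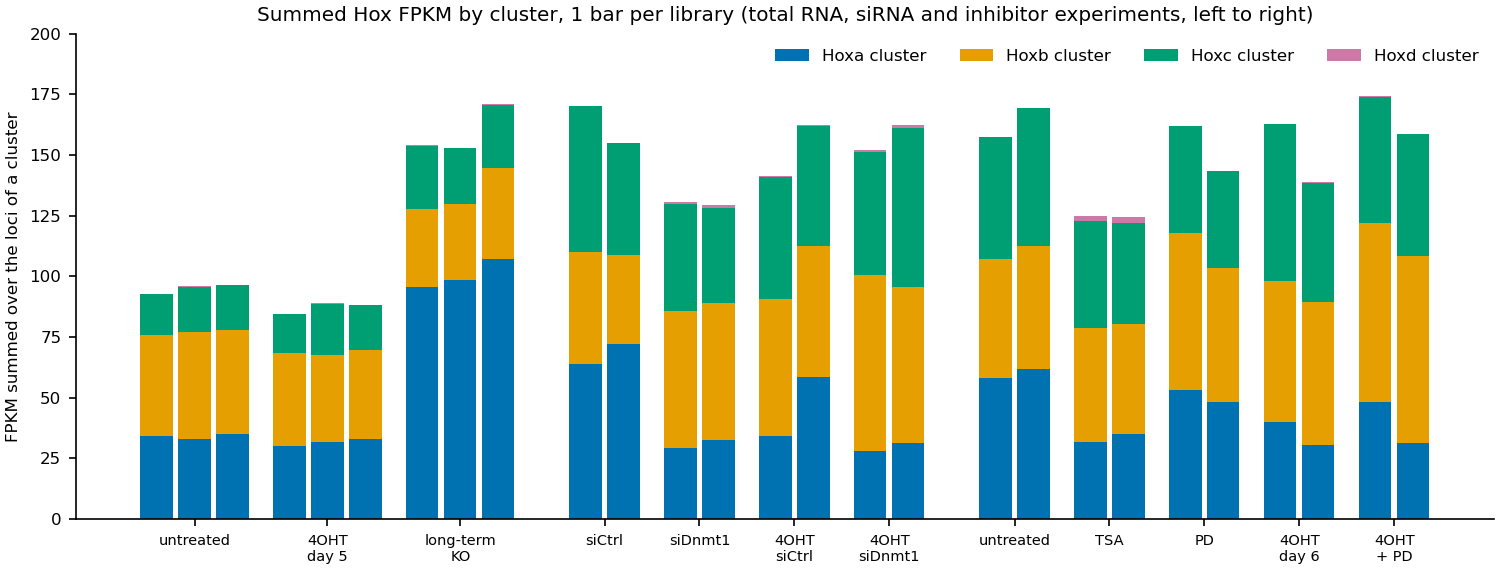
Summed FPKM of the Hoxa, Hoxb, Hoxc and Hoxd clusters, stacked, with 1 bar per library and all bars starting at 0. Joined loci are included in their cluster. The Hoxa part is largest in the 3 long-term KO libraries and smaller with siDnmt1 than with siCtrl. The total RNA libraries were made differently from the others, so bars are to be compared within an experiment.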

How the data were processed

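RNA was measured in 27 libraries of 12 groups in 3 experiments (9, 8 and 10 libraries). The authors aligned reads to the mouse mm9 genome with TopHat2 (version 2.0.12, from the submitters' processing notes) and made the deposited FPKM values with Cufflinks, one library at a time; the Cufflinks version was not given in the sources used here. Read totals were not used here, and fragment numbers are estimates from the deposited FPKM intervals. Total RNA was rRNA-depleted, and no such step is given for the other libraries, so levels were not compared between them. The total RNA files name no genes, and their loci were given names by position, covering at least 95% of a gene (99.88 to 99.91% of names were the same in named libraries treated alike).

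Each experiment was fitted alone with limma (3.58.1, R 4.3.3; limma-trend, two-sided) on log2(FPKM + 0.1), all groups in 1 fit. A gene was tested where at least 3 libraries of the total RNA experiment, or 2 of either other experiment, held 1 FPKM or more, and called at a Benjamini-Hochberg adjusted p under 0.05 over all tested genes and a 2-fold change. Interactions were called by adjusted p alone. Fold changes on this scale understate the change of low genes. Tables and figures were made with Python 3.11.15, numpy 2.4.6, pandas 2.3.3 and matplotlib 3.10.9. The fit was tested on simulated data with a log2 change of 2 in 200 genes: it found 194 for 4OHT day 5 against untreated cells (1 false call), 163 for siDnmt1 against siCtrl (3 false calls) and 161 for 4OHT day 6 against untreated cells (5 false calls).

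Values were given for the 2 highest genes of each cluster in the reference libraries and for every called Hox gene, though not in every group. Lists were given by count with at most 4 called members a comparison. Lists were TALE cofactors, PRC2, PRC1, MLL and Hox activators, upstream regulators, noncoding genes of the clusters, flanking genes, regional and limb identity factors, and other homeobox genes. Other genes given with values, such as those called without 1 library, were named after their values were seen. The members and lists were chosen with earlier results of these data known. Joined units were added after the files were seen. Promoter windows are 250 bases of the NCBIM37 (mm9) genome before the start of the locus in the files, with strand from the GENCODE vM1 annotation. Some items are not reported here. Alternatives were other pseudocounts, filters, scalings, fold limits, groups in the fit, a replicate block and leaving out each library.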

Additional observations from a re-analysis of the deposited data

Results flagged for a closer look

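Long-term KO cells differed from 4OHT day 5 cells for Hoxa13, Hoxc13 and the Hoxa9 to Hoxa11 unit by the limma test. This is the difference between their effects against the shared untreated cells. Time in culture and time without Setdb1 differed together between these groups and cannot be told apart. The log2 difference was 2.26 for Hoxa13 (1.42, 1.41 and 1.47 FPKM at day 5, 7.48, 6.93 and 7.36 FPKM in long-term KO cells; adjusted p = 2.3e-08), 1.52 for Hoxc13 (1.74, 1.74 and 1.98, then 4.96, 5.03 and 6.27 FPKM; adjusted p = 3.8e-05) and 1.77 for the sum of Hoxa9, Hoxa10 and Hoxa11 (24.2, 25.7 and 27.4, then 84.6, 86.9 and 93.1 FPKM; adjusted p = 1.6e-07). It was 3.81 for Hoxb13 (0.123, 0.189 and 0.152, then 3.26, 3.75 and 3.36 FPKM), given as a description, since Hoxb13 passed the filter on low values through the long-term KO libraries alone. All 3 long-term KO libraries were above all 3 day 5 libraries in each. The groups were apart, in either direction, for 73.0% of all tested genes. No group held 4 libraries or more, so no library could be tested as an outlier.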

How the results depend on the processing

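With 2 or 3 libraries a group, and few fragments behind low genes, single libraries decided many calls. Of 692 values of 40 single results under alternatives, 619 kept their direction and their state, called or not called. Of the others, 72 lost the call, 1 gained it and none reversed. Some of the 40 results lay below the fold limit and had no call to lose. Their values counted as kept even where the adjusted p rose above its limit. The 619 is therefore not a count of calls that held. Hoxa13, Hoxc13 and the Hoxa9 to Hoxa11 unit in long-term KO cells, and Hoxb2, Hoxb7, Hoxc11 and the Hoxb3, Hoxb5 and Hoxb6 unit with TSA, were called under every alternative that tested them. Of 281 counts of called Hox genes, 226 stayed within 1.5 times and 55 moved; the cause was not tested. With no fold limit, 2 were called at 4OHT day 5, 1 in 4OHT siCtrl and 1 in PD0325901 against their controls. In long-term KO cells, 2 (against untreated) and 1 (against 4OHT day 5) were called with a filter at 5 FPKM, and 7 in each with a joined value given to each of its genes. For siDnmt1, 1 was called with no filter, a 5 FPKM filter or quantile scaling. For 4OHT siDnmt1, 2 were called against siDnmt1 with only the compared groups in the fit, and 1 against 4OHT siCtrl with no filter. For 4OHT day 6, 1 was called with a pseudocount of 1 or median-ratio scaling and 0 with no filter. For PD0325901, 1 was called with a pseudocount of 0.01. For 4OHT PD against PD0325901, 0 were called with a pseudocount of 1, no filter, a 5 FPKM filter, median-ratio or quantile scaling, or only the compared groups. Leaving out 1 library at a time gave 0 to 0 calls for 4OHT day 5, 3 to 4 for long-term KO against untreated and 3 to 3 against day 5, 0 to 3 for siDnmt1, 0 to 2 for 4OHT siCtrl, 0 to 2 and 0 to 3 for 4OHT siDnmt1 against siDnmt1 and 4OHT siCtrl, 0 to 1 for its interaction, 0 to 2 for 4OHT day 6, 0 to 1 for PD0325901, 6 to 10 for TSA, and 0 to 0 and 0 to 3 for 4OHT PD against 4OHT day 6 and PD0325901.

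Replicate numbers were not taken to pair the samples: same-numbered libraries correlated at -0.0680 to 0.112 in the total RNA and siRNA experiments, and in the inhibitor experiment at 0.206 to 0.253 among PD0325901, 4OHT day 6 and 4OHT PD and at -0.0253 to 0.0352 otherwise. With the replicate block the 14 counts of called Hox genes were as without it: 4 in long-term KO against untreated cells, 3 against 4OHT day 5, 2 for siDnmt1, 9 for TSA, 2 for 4OHT day 6, 1 for 4OHT PD against PD0325901 and 0 in the other 8, among them PD0325901, 4OHT PD against 4OHT day 6 and both interactions.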
